A study of Mus musculus with 11 samples.

Results

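Immunoglobulin variable (V) segment genes were followed across bone marrow LSK cells of mice with altered Phf6. The genes were taken by symbol, as heavy (Ighv), kappa (Igkv) or lambda (Iglv) segments with a summed count of at least 20 over the 11 libraries. Of 346 such rows in the count table of 55291 gene symbols, 193 met the rule, 101 heavy, 89 kappa and 3 lambda. A further 57 rows had fewer counts and 96 had 0 in every library. The rows left out held 330 counts in all, against 342455 for the 193 segments. The segments nearest the threshold inside it were Ighv1-54, Ighv6-4 and Ighv8-13 with 20 counts each, and the nearest outside it was Ighv7-2 with 18.

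An antibody gene is assembled in each developing B cell by V(D)J recombination, in which the RAG1 and RAG2 proteins join 1 V segment to D and J segments (heavy chain) or to a J segment (kappa and lambda light chains). A rearranged gene is transcribed from the promoter of its V segment through to the constant region, so that the cells of a B cell clone share 1 heavy V segment and 1 light V segment in their transcripts, and plasma cells make such transcripts in very large amounts. Unrearranged V segments can also be transcribed at a low level before recombination. LSK cells are the bone marrow fraction that holds blood stem cells and early progenitors, most of which have not rearranged these loci.

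The cells were sorted as lineage-negative, cKit-positive and Sca-1-positive from C57BL/6 mice, and RNA of individual mice was sequenced. The groups were wild type (WT, n = 4), knockout of Phf6 (KO, n = 3) and mice labelled Phf6R274X Tg (Tg, n = 4). Phf6, on the X chromosome, encodes a chromatin protein mutated in human leukaemias, and R274X denotes a premature stop. The labels give no age, sex, batch, knockout driver or transgene promoter, and nothing says whether the Tg mice also carried the endogenous gene. They describe RNA of individual mice, and the p-values below measure the spread between these libraries.

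Library totals were 20990446 to 45632018. Levels are given as CPM, counts relative to the library total. A segment with 0 counts could have had up to 3, which is 0.0657 to 0.143 CPM depending on the library. This limit covers counting error only. Phf6 lay between 109 and 145 CPM in WT, between 15.1 and 24.0 in KO and between 168 and 277 in Tg. The 6 LSK markers read, Kit and Cd34 among them, summed to 1752 to 2623 CPM over all 11 libraries. Reads of Xist, transcribed from the inactive X chromosome, and of Y-linked genes were both present at 1 CPM or more in 4 libraries, WT 1, WT 2, WT 4 and KO 1, although each is labelled as 1 mouse. Xist stood at 50.02 to 53.83 CPM in the 4 WT, 32.65 to 40.3 in the 3 KO and 0.0307 to 0.297 in the 4 Tg libraries. The mean of 4 Y-linked genes was 12.5 to 91.9 CPM in Tg, 5.24 to 35.2 in the 4 mixed libraries and at most 0.434 in WT 3, KO 2 and KO 3. Xist thus separated Tg from WT and KO completely, so that in both comparisons with Tg the genotype and the sex-linked difference cannot be told apart, with or without the mixed libraries. These are called the libraries of mixed sex-linked reads, and results that rest on them are given with and without them below.

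The segments around which the results turn are shown here as the last 300 bases of their germline coding sequence (GENCODE M21, GRCm38), 5′ to 3′ on the coding strand. Capitals mark the stretch from the last in-frame cysteine codon to the end of the segment, where V meets D or J and where CDR3, the most variable loop of the antibody, begins. Ighv11-2 (chr12:114048241-114048812, minus strand) and Igkv14-126 (chr6:67896172-67896642, plus strand) are shown because both stood high in the same libraries. Together they encode antibodies to phosphatidylcholine that are typical of B-1 cells, a self-renewing B cell population.
Ighv11-2: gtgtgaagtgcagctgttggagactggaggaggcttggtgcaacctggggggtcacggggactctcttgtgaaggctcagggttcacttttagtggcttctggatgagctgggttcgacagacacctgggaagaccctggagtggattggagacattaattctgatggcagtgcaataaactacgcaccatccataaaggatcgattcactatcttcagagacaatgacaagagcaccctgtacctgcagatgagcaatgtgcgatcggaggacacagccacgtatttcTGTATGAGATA
Igkv14-126: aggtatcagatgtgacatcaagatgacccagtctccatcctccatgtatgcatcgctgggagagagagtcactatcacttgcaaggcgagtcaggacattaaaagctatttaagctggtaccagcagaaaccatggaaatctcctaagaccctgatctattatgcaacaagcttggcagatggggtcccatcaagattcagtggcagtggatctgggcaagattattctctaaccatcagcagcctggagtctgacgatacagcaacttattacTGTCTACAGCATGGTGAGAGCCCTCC

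Iglv1 (chr16:19085017-19085500) and Iglv2 (chr16:19260401-19260859), both on the minus strand, make up nearly the whole lambda V repertoire of the mouse. They are shown because they are so alike: their coding sequences of 351 and 348 bases differ by 13 edits (96.3% identity).
Iglv1: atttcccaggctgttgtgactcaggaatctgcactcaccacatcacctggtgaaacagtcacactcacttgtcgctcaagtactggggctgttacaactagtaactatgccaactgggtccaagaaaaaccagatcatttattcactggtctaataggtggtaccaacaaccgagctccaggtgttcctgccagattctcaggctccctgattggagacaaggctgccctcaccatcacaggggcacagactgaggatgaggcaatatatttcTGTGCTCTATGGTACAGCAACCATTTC
Iglv2: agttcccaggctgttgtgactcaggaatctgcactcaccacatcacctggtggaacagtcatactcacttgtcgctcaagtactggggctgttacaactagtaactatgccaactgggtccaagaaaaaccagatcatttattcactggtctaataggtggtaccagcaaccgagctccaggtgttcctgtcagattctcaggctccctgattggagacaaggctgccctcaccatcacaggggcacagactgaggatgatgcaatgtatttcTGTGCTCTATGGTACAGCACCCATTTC

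The last 90 coding bases are shown of 4 other segments that ranked first or next at their locus in single libraries. They lie at chr6:69814631-69815154 (Igkv12-44), chr6:69900424-69900977 (Igkv5-39), chr12:114391712-114392169 (Ighv6-3) and chr12:114991108-114991580 (Ighv1-47), all on the minus strand.
Igkv12-44: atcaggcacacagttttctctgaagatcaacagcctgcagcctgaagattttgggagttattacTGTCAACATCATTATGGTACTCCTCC
Igkv5-39: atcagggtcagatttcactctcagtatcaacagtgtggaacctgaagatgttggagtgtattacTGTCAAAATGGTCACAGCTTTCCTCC
Ighv6-3: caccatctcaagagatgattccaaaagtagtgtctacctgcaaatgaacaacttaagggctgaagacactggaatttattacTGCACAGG
Ighv1-47: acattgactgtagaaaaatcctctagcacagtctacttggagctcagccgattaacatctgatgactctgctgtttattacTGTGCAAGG

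All 193 segments were found in GENCODE M21. The heavy segments span 2427.5 kb of chromosome 12 (113572927 to 116000461), all on the minus strand. The kappa segments span 3094.5 kb of chromosome 6 (67609713 to 70704177), 33 on the plus and 56 on the minus strand, and the lambda segments lie within 175.8 kb of chromosome 16. Functional segments numbered 183, and the 10 annotated as pseudogenes (8 heavy, 2 kappa) held 0.59% of the counts, most of them in Ighv3-2 with 1604 counts. Segments resemble each other: the closest other segment had a median identity of 95.2%, and 102 of the 193 had a relative above 95%. Only 17 shared any stretch of 150 bases, the read length, with another segment. Counts of near-identical segments such as Ighv11-2 and Ighv11-1 (98.9% identity) could still be split by the counting and are uncertain, as are those of mutated rearranged genes.

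Heavy, kappa and lambda V transcripts were all lower in the 4 Tg libraries than in any WT or KO library. The summed heavy level was 377, 813, 87.8 and 261 CPM in WT 1 to 4, 401, 1365 and 523.5 CPM in KO 1 to 3, and 15.4, 11.3, 20.1 and 25.2 CPM in Tg 1 to 4. The group means were 384.8 ± 309.4 CPM for the 4 WT, 763 ± 525 for the 3 KO and 18.0 ± 6.00 for the 4 Tg libraries (SD), 21.4-fold lower in Tg than in WT and 42.4-fold lower than in KO. The lowest WT library held 3.48 times the highest Tg library, and the lowest KO library 15.9 times.

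Kappa segments carried more of the counts than heavy segments in every library except Tg 1. Their sum was 458, 2288, 97.8 and 320 CPM in WT, 434, 2124 and 579 CPM in KO, and 14.4, 15.0, 26.6 and 50.3 CPM in Tg. WT 2 and KO 2 each exceeded the other libraries of their group by several times, and WT 3 lay nearest to the Tg libraries, at 1.94 times the highest of them. The means were 791 ± 1009, 1046 ± 937 and 26.6 ± 16.8 CPM, 29.8-fold lower in Tg than in WT and 39.3-fold lower than in KO.

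The 3 lambda segments summed to 11.5, 84.9, 5.65 and 86.4 CPM in WT, to 21.1, 55.9 and 19.3 CPM in KO, and to 1.50, 0.223, 0.276 and 1.07 CPM in Tg. Here WT 4 reached the level of WT 2, although its kappa level was below that of WT 1. The means were 47.1 ± 44.5, 32.1 ± 20.6 and 0.769 ± 0.624 CPM, 61.3-fold lower in Tg than in WT and 41.8-fold lower than in KO. The WT and KO libraries overlapped for every locus, with log2 ratios of the KO to the WT mean of 0.99 for heavy, 0.40 for kappa and -0.55 for lambda segments. Sums over segments were described and not tested.

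**Figure D1:**
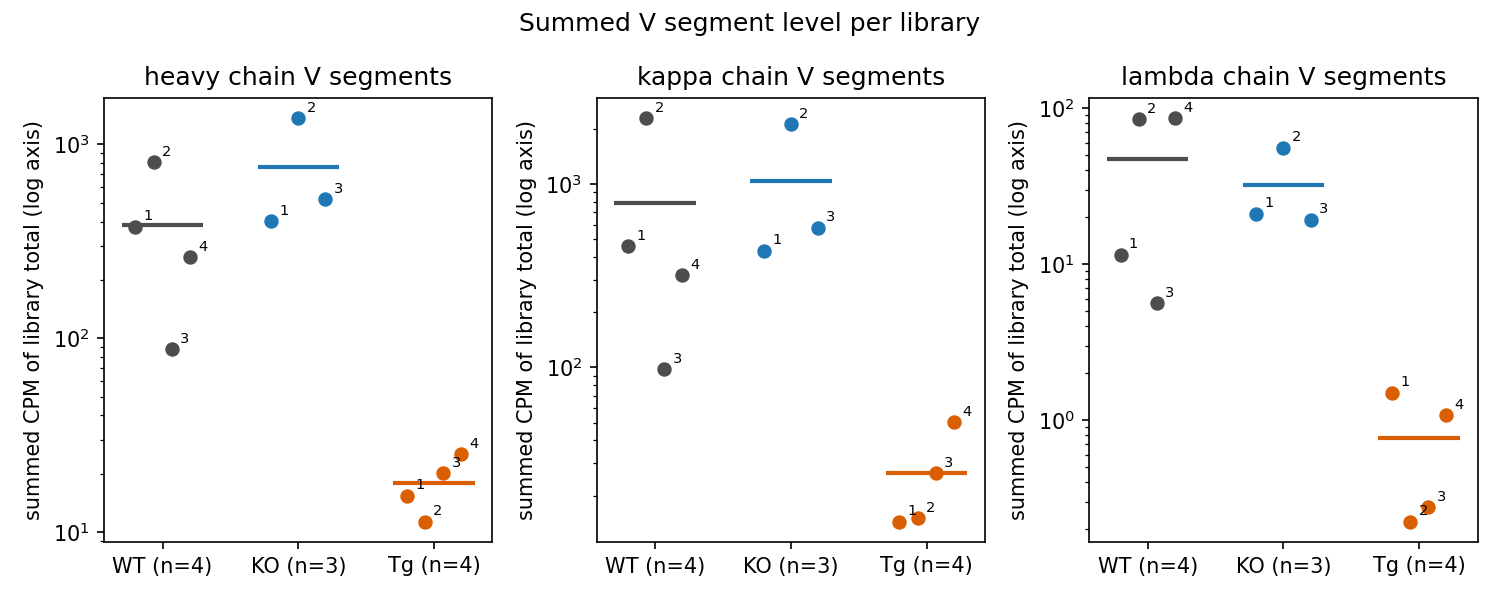
Summed CPM of heavy, kappa and lambda V segments (log axes) for each library of the WT, KO and Tg groups. Points are libraries numbered by replicate and bars are group means. All 4 Tg points lie under every WT and KO point, with WT replicate 3 closest (87.8 CPM heavy against 25.2 in the highest Tg library).

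Of all counts, V segments took 0.122 ± 0.134% in WT, 0.184 ± 0.148% in KO and 0.00454 ± 0.00226% in Tg. Without those 4 libraries, WT was left with replicate 3 alone, and the log2 ratio of Tg to WT was -2.29 for heavy, -1.88 for kappa and -2.88 for lambda segments. Against KO it was -5.71, -5.67 and -5.61. In bulk RNA fewer cells carrying V transcripts and fewer transcripts per cell cannot be told apart.

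The balance of light chains differed more between libraries than between groups. Kappa counts were 39.7, 27.0, 17.3 and 3.71 times lambda counts in WT, 20.6, 38.0 and 30.0 times in KO, and 9.60, 67.4, 96.1 and 46.9 times in Tg. WT 4 thus had the largest lambda share, 21.2% of its light chain V counts, and the Tg ratios rest on 8 to 62 lambda counts per library.

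Single segments accounted for large parts of the WT and KO repertoires. Among heavy segments Ighv11-2 led WT 1 with 21.4% of heavy counts, WT 2 with 57.2% and KO 1 with 53.7%. Ighv6-3 led KO 2 with 25.2% and Ighv5-4 led KO 3 with 33.3%, while Ighv8-12 led WT 3 with 12.3% and Ighv9-3 led WT 4 with 25.6%. In Tg the leaders were Ighv7-1 (13.8% in Tg 1 and 14.2% in Tg 4), Ighv9-3 (16.9% in Tg 2) and Ighv1-80 (15.7% in Tg 3). The mean share of the leader was 29.1 ± 19.5% in WT, 37.4 ± 14.7% in KO and 15.2 ± 1.40% in Tg, with the Tg values inside the WT range.

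Kappa leaders changed from library to library as well. Igkv12-44 led WT 1 (19.4%) and WT 4 (21.5%), Igkv5-39 led WT 2 (59.5%) and Igkv1-110 led WT 3 (7.75%). Igkv14-126 led KO 1 with 46.1%, Igkv16-104 led KO 2 with 19.0% and Igkv1-133 led KO 3 with 22.9%. In Tg the leaders were Igkv10-96 (24.5% in Tg 1 and 19.7% in Tg 4), Igkv15-103 (23.4% in Tg 2) and Igkv5-39 (25.9% in Tg 3). The mean share of the leader was 27.0 ± 22.5% in WT, 29.4 ± 14.6% in KO and 23.4 ± 2.66% in Tg, so that the groups overlapped. WT 3 was the most even library at both loci, with an inverse Simpson number (the count of equally used segments that would give the same concentration) of 26.2 for heavy and 28.9 for kappa. WT 2 was the most concentrated, at 2.90 and 2.60.

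**Figure D2:**
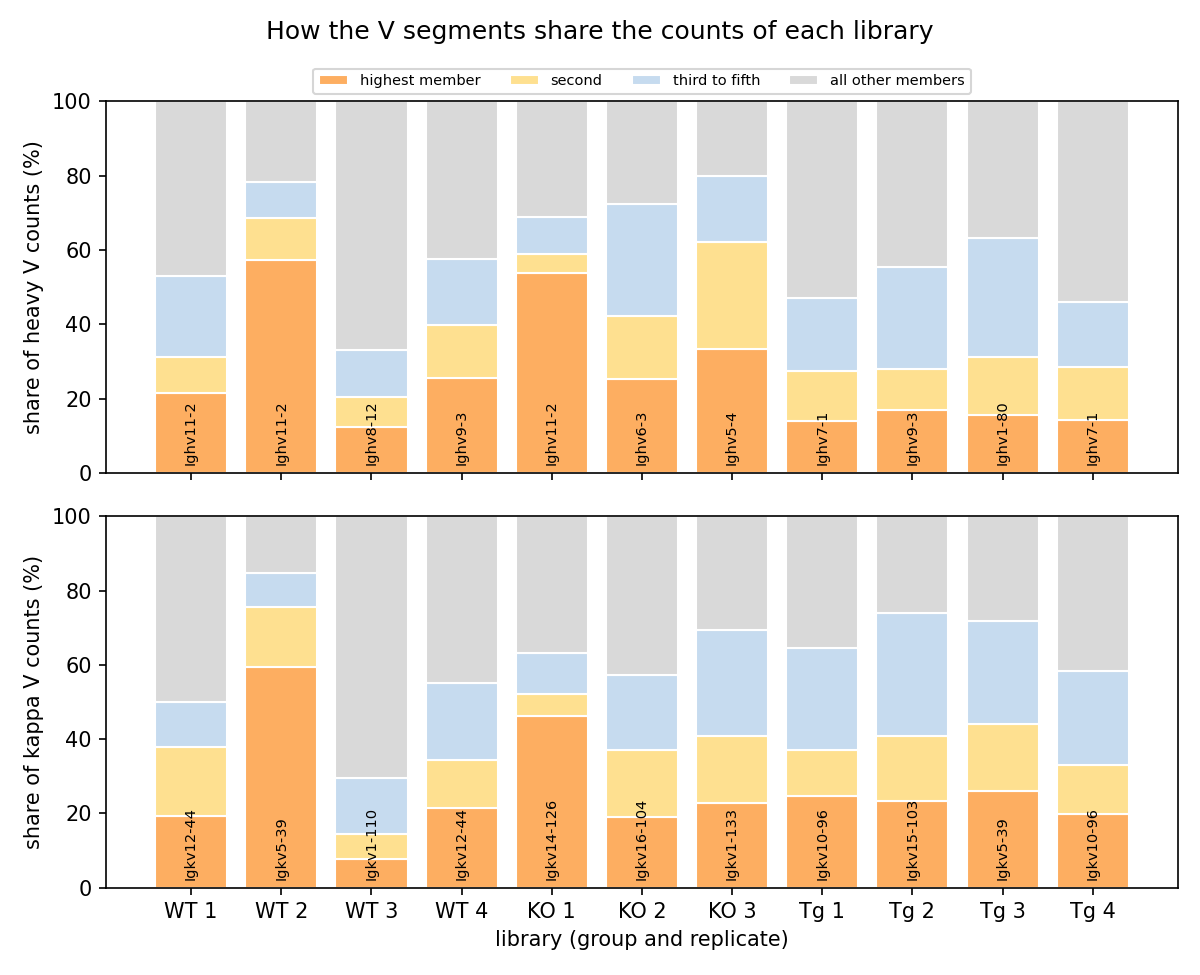
Share of heavy (top) and kappa (bottom) V counts in each library held by the highest segment, whose name is printed in the bar, the next, the 3 after those and all others. WT replicate 2 and KO replicate 1 were dominated by 1 segment at both loci, while WT replicate 3 was spread over many.

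To compare the number of segments in use at 1 depth, the expected number was computed for 400 heavy counts. It was 53.9, 39.5, 60.0 and 46.1 heavy segments in WT, 46.2, 33.8 and 34.6 in KO, and 36.6, 36.1, 26.0 and 48.3 in Tg, with overlap between all groups. At 500 kappa counts it was 44.0, 36.2, 52.9 and 38.5 kappa segments in WT, 46.7, 44.9 and 34.5 in KO, and 25.3, 23.7, 16.6 and 33.9 in Tg. For kappa the Tg values lay below those of WT and KO, narrowly at the edge, with 33.9 in Tg 4 and 34.5 in KO 3. The calculation takes each read as a separate molecule, and at the low Tg levels the reads may come from fewer molecules. Unthinned, 456 to 822 heavy counts in a Tg library fell on 27 to 55 segments, and 2733 to 45553 in a WT or KO library on 69 to 91.

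Most segments owed their counts to 1 library. In 99 of the 193, a single library held over 50% of the summed CPM, and the median share of the top library was 51.4%. That library was KO 2 for 32 of the 99, WT 2 for 17, WT 1 for 16, KO 1 for 10, KO 3 for 10, WT 4 for 8, WT 3 for 5 and Tg 4 for 1. Among 4601 other genes of like level (0.352 to 3.67 CPM), 1.37% depended on 1 library in this way, against 41.24% of the 97 V segments in that range. The T cell receptor V segments, which are rearranged in T cells by the same enzymes, stood between, at 3 of 12. A Tg library was the highest for only 3 segments, named here after their values were seen. Ighv1-82 had 3.11 CPM in Tg 3 against at most 1.77 in WT and KO, Ighv14-1 had 0.522 in Tg 4 against at most 0.351, and Igkv4-70 had 1.20 in Tg 4 against at most 0.329.

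The segments detected in all 11 libraries numbered 14, among them Ighv9-3, Ighv1-80, Igkv1-110, Igkv1-135, Igkv15-103 and Iglv1. In contrast 61 segments had 0 counts in all 4 Tg libraries (29 heavy, 31 kappa, 1 lambda), compared with 6 in all 4 WT and 10 in all 3 KO libraries. The Tg libraries held far fewer V counts. A 0 in any library leaves room for up to 3 counts and does not show absence. That limit, set by the library total, was 0.0726 to 0.104 CPM in Tg and 0.0657 to 0.143 in WT and KO.

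Ighv11-2 was the most abundant heavy segment, at a mean of 193 CPM per kb of exon over the 11 libraries. It had 80.5, 465, 0.675 and 15.0 CPM in WT, 215, 165.5 and 35.5 CPM in KO, and 0, 0, 0.415 and 0.246 CPM in Tg. Its partner Igkv14-126, printed above with it, had 84.5, 364, 0.707 and 17.0 CPM in WT, 200.0, 384 and 49.7 CPM in KO, and 0, 0.149, 0.8292 and 1.35 CPM in Tg. In counts, the pair stood at 2473 and 2595 in WT 1, 21 and 22 in WT 3, 314 and 356 in WT 4 and 9828 and 9127 in KO 1. In the other libraries the counts were less equal: 14421 and 11276 in WT 2, 5523 and 12811 in KO 2, and 1081 and 1512 in KO 3. In Tg they were 0 and 0, 0 and 6, 12 and 24, and 8 and 44. Counts of a gene pair in bulk RNA do not show that both chains came from the same cell.

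The other pair known from phosphatidylcholine-binding B-1 cells is Ighv12-3 with Igkv4-91. Ighv12-3 had 0.423, 0.935, 0 and 3.33 CPM in WT, 0.351, 4.34 and 0 in KO, and 0.969, 0, 0 and 0 in Tg. Igkv4-91 had 5.11, 1.77, 0.931 and 3.24 CPM in WT, 4.25, 7.97 and 9.37 in KO, and a single count in the 4 Tg libraries. Igkv4-91 separated Tg from WT and KO and Ighv12-3 did not, and KO 3 and WT 3 held it without any count of Ighv12-3. Ighv5-2, known as VH81X, the J-proximal segment favoured in early B cell development, stayed low everywhere, at 0 to 0.774 CPM in WT, 0.180 to 0.690 in KO and 0 to 0.0921 in Tg.

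Among the other leading heavy segments, Ighv6-3 had 0.554, 27.3, 0.0321 and 3.24 CPM in WT, 3.53, 343 and 0.526 in KO, and 0, 0, 1.28 and 0.644 in Tg. Ighv1-47 was almost private to KO 2, which held 99.6% of its summed CPM (235 CPM, with at most 0.677 elsewhere). Ighv5-4 had 174.5 CPM in KO 3 and at most 3.10 in the other libraries, and its relative Ighv5-6 (95.5% identity) had 150 CPM there and at most 3.62 elsewhere. Ighv8-8 had 158 CPM in KO 2 and at most 21.1 elsewhere. Ighv5-16 was high in 2 libraries of different genotype, with 93.1 CPM in WT 2 and 84.4 in KO 2, and had at most 8.51 in the others. For each of these segments other libraries of the same genotype were low.

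The kappa segment with the highest mean, Igkv5-39 (378 CPM per kb), rested on WT 2: it had 0.0977, 1362, 3.60 and 17.9 CPM in WT, 14.5, 36.8 and 0 in KO, and 0.726, 0.223, 6.88 and 0 in Tg. Igkv16-104 had 404.5 CPM in KO 2 and at most 20.5 elsewhere, and Igkv8-26 had 166 CPM in KO 2 and 22.9 in KO 3, with 0 in 3 WT and all 4 Tg libraries. Igkv1-135 and Igkv1-133 (96.5% identity) both peaked in KO 3, at 104.5 and 133 CPM. Igkv12-44 was spread more evenly, with 88.7, 17.1, 2.99 and 68.9 CPM in WT, 16.3, 11.9 and 82.8 in KO, and 0 in all 4 Tg libraries.

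**Figure D3:**
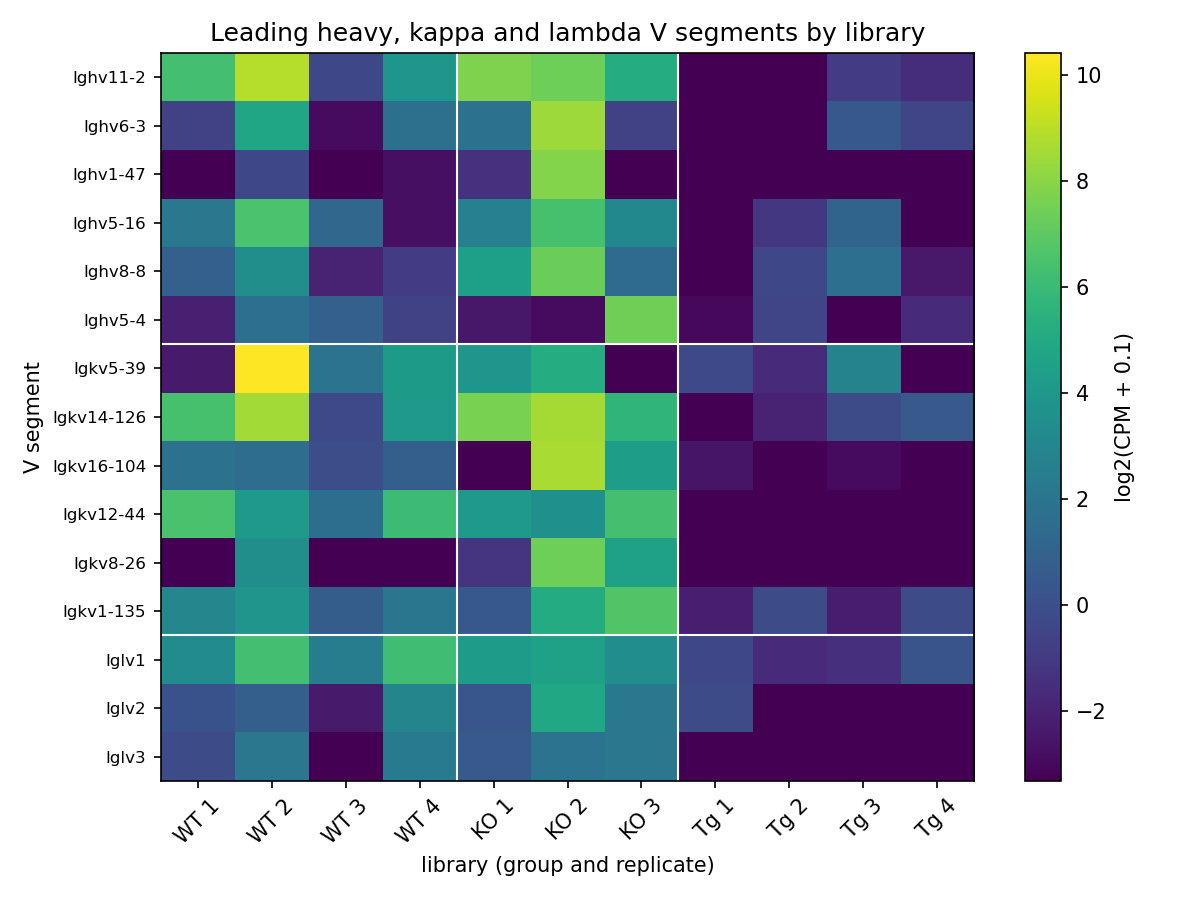
Level of the 6 heavy, 6 kappa and 3 lambda V segments with the highest mean, as log2(CPM + 0.1), in each library. Columns are libraries by group and rows are segments, with white lines between groups and loci. Some rows are bright in 1 library, such as Igkv5-39 in WT replicate 2 (1362 CPM) and Igkv16-104 in KO replicate 2 (404.5 CPM), and the Tg columns are the darkest for most rows.

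Iglv1 led the lambda locus in 9 of the 11 libraries. It had 9.74, 78.9, 5.56 and 74.0 CPM in WT, 18.6, 23.2 and 10.5 in KO, and 0.678, 0.223, 0.276 and 1.07 in Tg. Iglv2 led in KO 2 (29.2 CPM, 52.1% of lambda counts) and in Tg 1 (0.823 CPM, 54.8% of 62 counts), and it had 0 counts in the other 3 Tg libraries. Iglv3 was the rarest, with at most 4.91 CPM in WT, 1.34 to 4.27 in KO and 0 in Tg. In the mouse Iglv2 is joined mainly to the constant region Iglc2, and Iglv1 to Iglc1 or Iglc3. Iglc2 was likewise highest in KO 2 (30.0 CPM), and Iglc3 in WT 4 (56.8 CPM), where Iglc1 had 0.572 CPM. In WT 2 Iglc1 and Iglc3 stood at 40.0 and 34.7 CPM beside 78.9 CPM of Iglv1. Since Iglv1 and Iglv2 are near-identical, as printed above, their split depends on the counting.

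By family, the Ighv1 family, the largest with 50 members, held 10.8 to 42.6% of heavy counts in WT, 14.3 to 34.7% in KO and 41.1 to 55.9% in Tg. In level it was still lower in Tg, at 8.78 ± 2.26 CPM against 90.4 ± 41.8 in WT and 216 ± 223 in KO. The Ighv11 family of 2 members held 0.80 to 57.2% of heavy counts in WT, 6.80 to 53.7% in KO and 0 to 2.10% in Tg, with WT 3 inside the Tg range. The Ighv5 family of 10 members took 67.0% of heavy counts in KO 3 and 2.10 to 13.6% in the other libraries. Among kappa families Igkv1 (9 members) held 43.5% of kappa counts in KO 3 and 50.7% in Tg 2, and Igkv17 (2 members) held 32.9% in Tg 3 and at most 2.00% in WT and KO. The Igkv4 family, the largest kappa family with 22 members, held 1.90 to 17.4% in WT, 2.10 to 6.40% in KO and 0.30 to 8.50% in Tg.

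Position along the locus was read as the share of counts on the J-proximal side of its midpoint. Of heavy counts, the 60 segments there held 55.8 to 90.4% in WT, 61.4 to 87.5% in KO and 35.3 to 69.5% in Tg, with overlap of all groups. The 53 J-proximal kappa segments held 52.3 to 76.3% of kappa counts in WT, 29.5 to 42.4% in KO and 13.5 to 48.6% in Tg, so that all KO and Tg libraries lay below the 4 WT libraries. Single leading segments enter these shares. Igkv5-39, with 59.5% of kappa counts in WT 2, lies on the J-proximal side. Igkv14-126, with 46.1% in KO 1, and Igkv1-133, with 22.9% in KO 3, lie on the other side. In WT 3, the most even library, the J-proximal kappa share was 57.0%. The kappa difference and the part of single segments in it were not tested.

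The comparison of Tg with WT asked what the R274X transgene changes. By edgeR's quasi-likelihood test over 17183 genes, with Benjamini-Hochberg adjusted p under 0.05, 25 V segments were lower in Tg (12 heavy, 11 kappa, 2 lambda) and 0 were higher. In all genes 2.39% were called lower and 2.54% higher. The test covered 135 of the 193 segments (70 heavy, 62 kappa, 3 lambda), those that passed a filter on low counts which favours segments high in 1 group. Without the filter 48 of all 193 were called lower, against 1.41% of genes, and 0 higher, against 1.5% of genes. At an unadjusted p under 0.05, 92 were lower (11.1% of genes) and 0 higher, against 10.9% of genes. DESeq2 called 54 lower (5.65% of genes) and 0 higher (5.48% of genes). In 35 tested segments every Tg library lay below every WT library (5.75% of genes), and in 0 above (4.01% of genes).

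The median log2 fold change of the 135 tested segments was -4.41, beside 0.005 for all genes tested. Since fitted values of segments absent from a group are not bounded, the median was also taken over pooled CPM with such segments held at 3 counts over the group. It was -4.07 over the 183 segments above that floor in WT or Tg, of which 56 stood at the bound, 175 lay below 0 and 8 above.

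Igkv4-91, of the B-1 pair described above, had the lowest p of the V segments (adjusted p = 0.00102 by edgeR). Pooled, its WT level was 389 times its Tg level, with a 95% interval from 69.2 to 15400 for counting error on the 1 Tg count. Igkv4-68, a low segment, had 0.586, 1.03, 0.964 and 0.429 CPM in WT and also 1 count in Tg (112 times, interval 19.6 to 4470, adjusted p = 0.00132 by edgeR). It was the steadiest of the called segments across WT and KO, where no library exceeded 1.20 CPM.

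Iglv1 had a log2 fold change of -6.16 (SE 0.947, edgeR adjusted p = 0.00972), and Ighv6-6, with 16.7, 5.97, 2.02 and 1.29 CPM in WT and at most 0.276 in Tg, fell by 6.25 (SE 1.07, adjusted p = 0.0127). Igkv4-72 had 3.58, 9.90, 1.83 and 13.0 CPM in WT and 0 in Tg, at least 313-fold lower against 3 counts over the Tg group (244-fold without WT 4). Ighv1-67 had 2.26 to 3.12 CPM in WT and 0 in Tg, at least 118-fold lower when WT 3 is left out. These 6 segments kept their calls when any 1 library was left out (adjusted p up to 0.0492). Without the 4 libraries of mixed sex-linked reads only Igkv4-91 of the 6 did, and Iglv1 had a log2 fold change of -3.25 (adjusted p = 0.224 by edgeR) and Igkv4-68 an adjusted p of 0.0694.

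The recurrent pair was called too. Ighv11-2 was lower by a log2 fold change of -9.83 (SE 1.98, adjusted p = 0.0214 by edgeR), though without Tg 1 or Tg 2 the adjusted p rose to 0.0770 or 0.0684. Igkv14-126 fell by 7.68 (SE 1.68, adjusted p = 0.0284), and its WT 3 value of 0.707 CPM lay inside the Tg range. Leaving out WT 1, WT 2, Tg 1, Tg 2 or Tg 4 ended its call, with an adjusted p of 0.0936 for Tg 1. Without the 4 libraries of mixed sex-linked reads the log2 fold change was -2.16 for Ighv11-2 (adjusted p = 0.658 by edgeR) and -0.36 for Igkv14-126 (0.972), so that neither call held. By limma-voom the adjusted p was 0.614 and 0.532. Igkv12-44 was called (adjusted p = 0.0190, 0.0527 without Tg 1 and 0.272 without the libraries of mixed sex-linked reads), and so was Iglv3 (0.0419), whose call was lost for 10 of the 11 libraries left out singly (up to 0.103).

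Most of the segments that were high in WT 2, KO 2 or KO 3 alone did not pass. The log2 fold change of Tg against WT was -4.12 for Ighv6-3 (SE 2.12, adjusted p = 0.285 by edgeR), -5.42 for Ighv5-16 (0.115), -2.49 for Ighv5-4 (0.544) and -1.83 for Ighv8-8 (0.516). It was -7.52 for Igkv5-39 (SE 2.44, adjusted p = 0.102), -6.08 for Igkv16-104 (0.221), -3.82 for Igkv1-135 (0.0865) and -3.44 for Iglv2 (0.211). Igkv8-26, with WT counts in WT 2 alone, had an adjusted p of 0.265, and Ighv1-47 did not pass the filter on low counts. Ighv12-3 (-2.11, 0.511) and Ighv5-2 (-3.02, 0.186) did not pass either.

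The number of calls depended on single libraries. It was 6 without Tg 1, 7 without Tg 2, 10 without WT 1 and 15 without WT 2, with a range of 6 to 32 over the 11 libraries left out in turn. The share of all genes called in each of these fits was not determined. Without the 4 libraries of mixed sex-linked reads, in which the spread of the lone WT 3 is assumed to be like that of the other groups, 2 segments were called lower and 0 higher. Over all genes that fit called 0.0596% lower and 0.0488% higher. The 2 were Igkv4-91 (log2 fold change -6.41, adjusted p = 0.0198 by edgeR) and Ighv8-12 (-9.21, 0.00321), the leader of WT 3, named here after its values were seen.

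**Figure D4:**
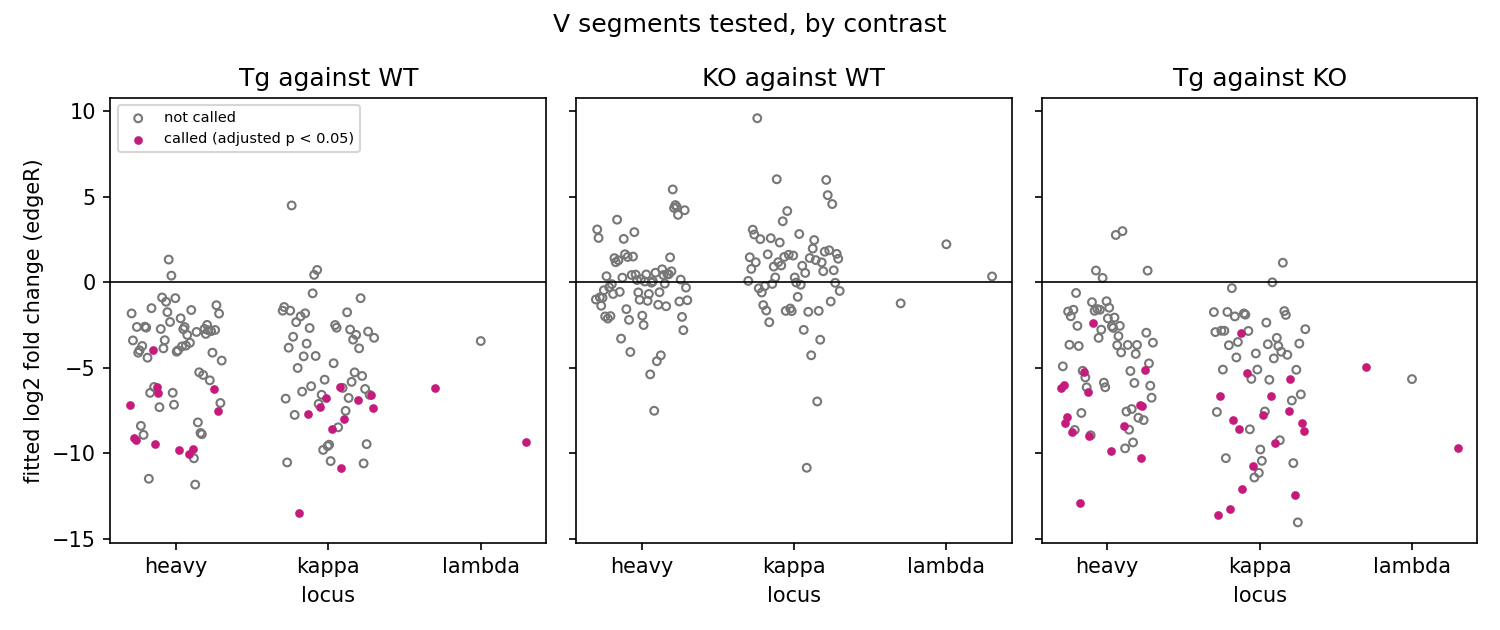
Fitted log2 fold change of each V segment tested, by locus and contrast, with segments at an adjusted p under 0.05 filled. In Tg against WT and Tg against KO nearly all points lie below 0 (130 and 128 of 135), and in KO against WT they lie on both sides (60 of 135 below 0) with none filled.

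Tg was compared with KO as well; it shares the Tg libraries with the previous comparison. Here 35 V segments were lower in Tg (16 heavy, 17 kappa, 2 lambda; 3.06% of all genes were called lower) and 0 were higher (2.63% of genes). At an unadjusted p under 0.05, 89 were lower (10.9% of genes) and 0 higher (10.7% of genes). DESeq2 called 43 lower (5.58% of genes) and 0 higher (5.6% of genes), and without the filter 54 of 193 were lower (1.83% of genes) and 0 higher (1.44% of genes). In 49 segments every Tg library lay below every KO library (10.8% of genes), and in 0 above (9.2% of genes). The median log2 fold change was -5.12 over the 135 tested and 0.013 over all genes. It was -4.64 over the pooled values of 177 segments, 50 of them at the bound.

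The lowest p-values in Tg against KO again belonged to Igkv4-91 (975 times higher in KO, interval 174 to 38600, adjusted p = 0.000261 by edgeR) and Igkv4-68 (153 times, interval 26.9 to 6100, adjusted p = 0.000533). Ighv5-9-1, with 3.24, 23.6 and 0.723 CPM in KO and 0, 0.198, 0 and 0 in Tg, fell by 7.26 (SE 1.28, adjusted p = 0.0103). Igkv9-120, with 12.0, 38.9 and 8.28 CPM in KO and at most 0.173 in Tg, fell by 8.71 (SE 1.54, adjusted p = 0.0104). Igkv6-23, with 26.5, 25.3 and 3.19 CPM in KO and 0.399 CPM in Tg 4 alone of the Tg libraries, fell by 7.55 (adjusted p = 0.0126). Ighv1-7 had 5.24, 11.7 and 0.0329 CPM in KO and 1 count in Tg (adjusted p = 0.0112, 0.0561 without the libraries of mixed sex-linked reads).

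Ighv11-2 and Igkv14-126 were lower in Tg than in KO, with log2 fold changes of -9.88 (SE 2.00, adjusted p = 0.0189 by edgeR) and -8.60 (SE 1.74, adjusted p = 0.0187) and no overlap of the groups. Each lost the call without KO 2, Tg 1 or Tg 2 (adjusted p up to 0.0632). Without the libraries of mixed sex-linked reads, KO was left with KO 2 and KO 3. There 30 segments were called lower, and the share of all genes called in that fit was not determined. The count was 9 without Tg 1, 12 without Tg 2, 17 without KO 2, 19 without Tg 3, 20 without Tg 4, 22 without KO 3 and 23 without KO 1. For these fits too the share of all genes called was not determined.

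The comparison of KO with WT asked what loss of Phf6 changes. By edgeR 0 V segments were called lower (0.0175% of all genes) and 0 higher (0.00582%). At an unadjusted p under 0.05, 7 were lower (3.75% of genes) and 17 higher (3.33% of genes), and DESeq2 called 2 lower (0.274% of genes), Igkv4-72 and Ighv14-3, and 0 higher (0.297% of genes). Without the filter 1 was lower, Igkv4-72 (0.0132% of genes), and 0 higher (0.00329% of genes). The groups did not overlap for 4 lower segments (5.01% of genes), Ighv1-67, Ighv1-76, Ighv14-3 and Igkv4-72 (named after their values were seen), and 1 higher (2.71% of genes), Ighv5-9-1. The median log2 fold change was 0.28 over the 135 tested and -0.005 over all genes. By pooled values with bounds it was -0.23 for heavy and 0.83 for kappa segments, with 57 of 101 heavy and 36 of 89 kappa segments below 0.

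Igkv4-72 had the lowest p in KO against WT. It was present in each WT library, as given above, and had 0 counts in all 3 KO libraries, at least 239-fold lower against 3 counts over the KO group (186-fold without WT 4). Its adjusted p was 0.268 by edgeR over the filtered genes, 0.0167 without the filter and 2.12e-06 by DESeq2. The segment had 0 counts in Tg as well, so that all 746 counts came from the WT group.

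Ighv5-9-1 lay higher in each KO library, as given above, than in WT (0.326 to 0.516 CPM), with a log2 fold change of 4.40 (SE 1.06, adjusted p = 0.344 by edgeR) that dropped to 2.20 without KO 2. Igkv16-104 had a log2 fold change of 6.03 (adjusted p = 0.390), which was 2.27 without KO 2. Ighv14-3 had 0.0977, 0.839, 1.96 and 0.715 CPM in WT and 2 counts in KO (50.5 times higher in WT, interval 13.6 to 422, adjusted p = 0.408 by edgeR). Ighv2-3 had 0.879, 8.51, 7.10 and 0 CPM in WT and 2 counts in KO (246 times, interval 67.8 to 2040, adjusted p = 0.473). None of these passed by edgeR. Without the 4 libraries of mixed sex-linked reads, WT was left with replicate 3 alone. The log2 fold change of KO against WT was then -9.08 for Ighv8-12, the leader of WT 3, and 13.34 for Ighv1-58. Ighv1-58 had 0 counts in WT 3, so its fitted value is not bounded. Ighv1-58, named after its values were seen, had 2.83, 3.77, 0 and 37.2 CPM in WT and 9.62, 39.3 and 36.8 in KO.

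The constant region genes, to which V segments are spliced, moved in the same direction as the V segments. Of 13 in the list 11 were tested and 6 were lower in Tg than in WT (Igha, Iglc1, Igkc, Iglc3, Ighm and Ighd), 0 higher, with a median log2 fold change of -4.26. Igkc, the kappa constant region, had 611, 2384, 102 and 268.5 CPM in WT, 601, 2518 and 588 in KO, and 28.3, 18.6, 58.1 and 64.5 in Tg (log2 fold change of Tg against WT -4.26, SE 0.932, adjusted p = 0.0284 by edgeR). Kappa V counts were 0.749 to 1.19 times Igkc counts in WT, 0.722 to 0.985 times in KO and 0.457 to 0.810 times in Tg.

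Ighm, the mu heavy chain, had 803, 4338, 240.1 and 1644 CPM in WT, 1020.0, 5933 and 2198 in KO, and 189.5, 147.5, 156 and 188 in Tg (-3.30, SE 0.766, adjusted p = 0.0345 by edgeR). Heavy V counts were 0.159 to 0.469 times Ighm counts in WT, 0.230 to 0.393 times in KO and 0.0766 to 0.134 times in Tg, so that every Tg library had less heavy V per Ighm than every other library. Ighm can be transcribed from an unrearranged locus, and its counts do not show recombination by themselves. Of switched isotypes, Igha had 374, 168, 201 and 118 CPM in WT, 125.8, 63.9 and 56.0 in KO and 22.9, 26.5, 75.7 and 30.5 in Tg, and Ighg2c reached 181 CPM in KO 1 and 66.9 in WT 1.

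J segments, the joining partners, were tested for 9 of 13 genes, of which 3 were lower in Tg than in WT (Ighj3, Igkj2 and Ighj4) and 0 higher, with 9 at an unadjusted p under 0.05. Of 15 genes of V(D)J recombination, Dntt, Xrcc6 and Rag2 were called lower and 0 higher. Rag1 had 30.4, 207, 9.57 and 50.2 CPM in WT, 77.8, 30.1 and 41.7 in KO, and 2.28, 4.11, 2.87 and 22.6 in Tg (log2 fold change -3.16, adjusted p = 0.0819 by edgeR). Of 10 surrogate light chain and pre-B receptor genes, none was called by edgeR, with 6 lower at an unadjusted p under 0.05 and 4 called lower by DESeq2.

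The libraries with the most V counts differed in their B lineage markers; the genes named here were in part chosen after their values were seen. In WT 2, highest in Igkv5-39 and Ighv11-2, the pre-B cell genes were also highest, with 207 CPM of Rag1, 192 of Ebf1 and 111 of Igll1. KO 2, with the highest heavy V and Ighm levels of all libraries, had 30.1 CPM of Rag1, 19.0 of Ebf1 and 16.1 of Igll1, below the other KO libraries, but the most Tnfrsf17 (4.22 CPM) and Fcrla (7.10 CPM), markers of plasma and mature B cells. Jchain, which joins secreted IgM and IgA, had 174, 435.5, 50.5 and 158 CPM in WT, 141, 140.2 and 171 in KO, and 9.18, 6.37, 26.0 and 18.5 in Tg (-3.74, SE 0.589, adjusted p = 0.0104 by edgeR).

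**Figure D5:**
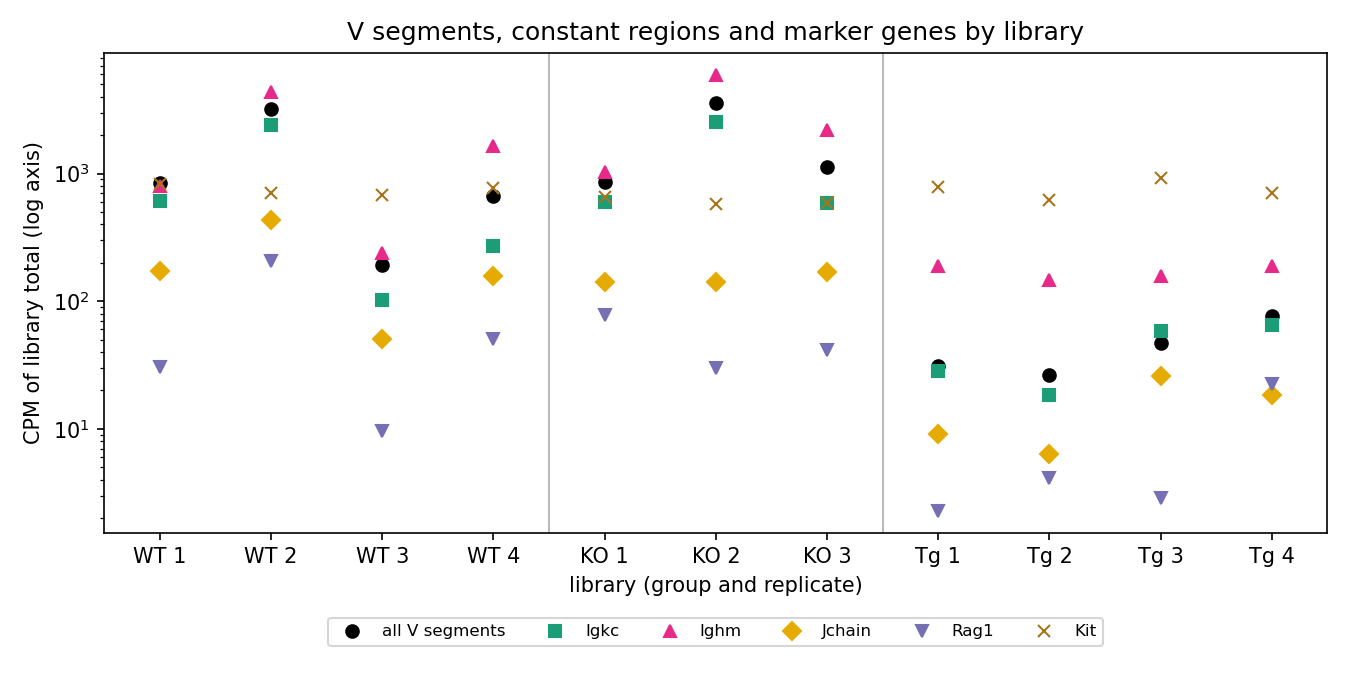
CPM (log axis) of all V segments together, the constant regions Igkc and Ighm, the plasma cell gene Jchain, the recombinase gene Rag1 and the LSK marker Kit in each library. V segments, Igkc, Ighm and Jchain are all lowest in the Tg libraries, while Kit stays between 578 and 931 CPM.

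The marker lists of these cell types were read as a whole. The 12 B cell markers summed to 133 to 644 CPM in WT, 222 to 353 in KO and 107 to 188 in Tg, with 0 called in Tg against WT by edgeR, 8 lower at an unadjusted p under 0.05 and 4 lower by DESeq2. Of the defining markers, Ms4a1 (CD20) stayed at or under 1.71 CPM, with 0 in 3 Tg libraries. The 12 plasma cell markers summed to 339 to 878, 445 to 594 and 309 to 359 CPM, and 2 were called lower in Tg by edgeR (Jchain and Tnfrsf17) and 0 higher. At an unadjusted p under 0.05, 6 were lower and 2 higher, and DESeq2 called 6 lower and 2 higher. The 2 higher were Creld2 and Fkbp11, named after their values were seen, both genes of the secretory pathway. The 6 LSK markers had 0 called by edgeR and by DESeq2, with 1 lower at an unadjusted p under 0.05. What part B lineage or plasma cells in the sorted fraction had in the V segment differences was not tested.

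Markers of other cell types were read the same way. The 10 T and NK cell markers summed to 31.0 to 55.0 CPM in WT, 35.2 to 43.2 in KO and 16.2 to 22.3 in Tg, with 3 called lower in Tg against WT. The 12 T cell receptor V segments, taken by the same rule as the immunoglobulin segments, summed to 2.47 to 4.29 CPM in WT, 3.11 to 7.30 in KO and 1.29 to 2.35 in Tg. They were lower in Tg as a sum, but by a far smaller factor (means of 3.70 ± 0.841 and 1.76 ± 0.452 CPM in WT and Tg). Some markers of these other cell types fell further, named after their values were seen. The NK cell marker Ncr1 had means of 1.85 CPM in WT and 0.0817 in Tg, and the macrophage marker Cd5l 4.82 and 0.200. Of the markers tested, 8 of 9 for T and NK cells and 7 of 8 for macrophages lay below 0. The 8 macrophage markers summed to 32.8 to 218 CPM in WT and 20.5 to 115 in Tg (3 called lower), the 5 erythroid markers to 15.5 to 38.3 and 2.59 to 14.9 (1 lower), and the 6 neutrophil markers to 11.3 to 105 and 51.1 to 579 (1 higher). Vcam1 was the highest of the macrophage markers and had means of 59.5 CPM in WT and 59.8 in Tg. At an unadjusted p under 0.05 by edgeR, 7 macrophage and 5 T and NK cell markers were lower. So were 2 erythroid markers, and 2 neutrophil markers were higher. DESeq2 called 6 macrophage, 4 T and NK cell and 2 erythroid markers lower, and 2 neutrophil markers higher. The part of these cell types in the V segment differences was not tested.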

How the data were processed

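Values are unnormalised counts by gene symbol, in 1 table that the authors deposited for the 11 libraries. FastQC, Trimmomatic, STAR, HTSeq and mm10 appear in the submitters' processing notes. Their versions, the annotation, the strand setting and any filters are not stated there. The segments and companion lists were chosen with earlier results of these data known. Segments were matched by symbol to GENCODE M21 (GRCm38), which also gave the sequences, and compared with edlib. CPM in the text used library totals (20990446 to 45632018). All 11 libraries were fitted with edgeR 4.0.16 in R 4.3.3 (TMM, filterByExpr, quasi-likelihood test, no covariate, common biological coefficient of variation 0.272). Benjamini-Hochberg adjustment ran over 17183 genes. Intervals of count ratios are exact (Clopper-Pearson, 95%).

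Named were the segments of highest mean level per locus, the lowest p in each contrast (up to 6), the leader of each library, those nearest the threshold, Ighv11-2, Igkv14-126, Ighv12-3, Igkv4-91 and Ighv5-2, and up to 4 genes per companion list. By edgeR the germinal centre and B-1 cell lists had 0 and 1 genes called in Tg against WT, the latter Arid3a, higher. The other 2 of the 3 B-1 cell genes tested lay below 0. Cd5 had means of 1.14 CPM in WT and 0.414 in Tg, and Bhlhe41 0.869 and 0.215. DESeq2 called 1 B-1 cell gene lower and 1 higher, and 1 germinal centre gene higher. Alternatives were DESeq2 1.42.0, limma-voom (limma 3.58.1), other scalings, filters, covariates and member rules, and each library left out in turn. Fits against WT without the libraries of mixed sex-linked reads were added after seeing the data. Some genes that the rule names are left out of the text.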

Additional observations from a re-analysis of the deposited data

Results flagged for a closer look

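In groups of 4 libraries, 18 of 92 sets of values had 1 library far from the other 3. Chance flags about 1 in 20 for independent normal values, a rate that sparse values from the same 4 libraries need not follow, so the number of sets is no measure of excess. A set with 0 in 3 libraries and any count in the other is always among them. In WT all 9 were WT 2. Its summed kappa level was 2288 CPM, with 97.8 to 458 in the other WT libraries, and Igkv5-39 stood at 1362 CPM, with at most 17.9. Ighv5-16 had 93.1 CPM there (at most 4.49 in the others), Igkv6-23 had 36.4 (at most 5.78), Ighv6-3 had 27.3 (at most 3.24) and Igkv1-133 had 15.6 (at most 3.28). Ighv8-8 had 11.1 CPM (at most 1.73), Igkv8-26 had 10.8 (0 in the others) and Ighv1-47 had 0.677 (at most 0.0476). The same library had the highest Rag1 and Ebf1 levels and held both Xist and Y-linked reads, and their part was not tested.

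In Tg the 9 were spread over the 4 libraries. Igkv5-39 had 6.88 CPM in Tg 3 (at most 0.726 in the others), and Ighv1-80 had 3.14 there (at most 0.368). Tg 1 had 0.969 CPM of Ighv12-3, 0.823 of Iglv2 and 0.0242 of Igkv4-91, each with 0 in the other 3. Tg 2 had 0.198 CPM of Ighv5-9-1 and 0.0248 of Igkv4-68, and Tg 4 had 0.399 of Igkv6-23 and 0.0307 of Ighv1-7, again with 0 in the others. The values of Igkv4-91, Igkv4-68 and Ighv1-7 are single counts.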

How the results depend on the processing

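The direction of the summed Tg differences held in every alternative run, and 0 segments were called higher in Tg in any of them. The number called lower in Tg against WT (25) was 48 with no filter, 13 with robust empirical Bayes, 13 with the replicate block, 4 with limma-voom, 54 with DESeq2, 2 without the libraries of mixed sex-linked reads (added after seeing the data), and 6 to 32 with 1 library left out. In Tg against KO (35) it was 54 with no filter, 18 with robust empirical Bayes, 22 with the replicate block, 15 with the Y-linked level as covariate, 4 with limma-voom and 9 to 37 with 1 library left out. The share of all genes called was not determined for the robust, block, covariate and limma-voom runs or with 1 library left out. In KO against WT (0 either way) it was 1 lower with no filter and 2 lower with DESeq2. Without the libraries of mixed sex-linked reads, where WT is 1 library, the log2 fold change was -9.08 for Ighv8-12 and 13.34 for Ighv1-58. The causes were not tested.

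Without those libraries the summed log2 ratios were -2.29, -1.88 and -2.88 (heavy, kappa, lambda) for Tg against WT and 3.43, 3.79 and 2.73 for KO against WT, the last a reversal, and in both WT is 1 library. The lambda ratio of KO to WT was also 1.33 with the highest segment of each library left out, and the kappa ratio ran from -0.64 (without KO 2) to 1.84 with 1 library left out. In the same fit the log2 fold change of Tg against WT was 6.14 for Ighv12-3, 3.13 for Ighv5-2, 3.61 for Ighv6-3, 2.50 for Ighv8-8, 1.23 for Iglv2, and 0 for Igkv8-26 and Iglv3, none of them called. With 1 library left out it ran from -3.53 to 0.23 for Ighv8-8 and from -9.91 to 0 for Igkv8-26, the upper ends without WT 2, which holds all WT counts of Igkv8-26.

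The replicate numbers do not pair the libraries: same-numbered deviations correlated between -0.25 and 0.10. The Tg libraries hold 1072 to 2497 V counts each, which limits what single segments can show there. Of the alternatives for single segments, 717 kept direction and side of the threshold, 55 lost the call, 9 gained it and 9 changed sign.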
